A study of Mus musculus with 103 samples.

Results

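The proteasome genes were measured as mRNA in single mouse 2-cell embryos made by injecting sperm or sperm heads into oocytes. They were taken as every row of the expression table whose symbol begins with Psma, Psmb, Psmc or Psmd and a digit, which gave 34 of 7894 genes. Of these, 14 encode the core particle, 7 in its alpha ring (Psma1 to Psma7) and 7 in its beta ring (Psmb1 to Psmb7). Another 16 encode the regulatory particle, made of 6 ATPases (Psmc1 to Psmc6), 3 other subunits of its base (Psmd1, Psmd2 and Psmd4) and 7 subunits of its lid (Psmd3, Psmd6, Psmd7, Psmd8, Psmd11, Psmd12 and Psmd14). The last 4 are Psmd5, Psmd9 and Psmd10, which are assembly chaperones of the base, and Psmc3ip, a cofactor of meiotic recombination that matched by name only. Psma8, Psmb8, Psmb9, Psmb10, Psmb11 and Psmd13 were not analysed here, so the catalytic subunits of the immunoproteasome could not be set beside their constitutive counterparts.

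The proteasome degrades proteins that carry ubiquitin chains. The lid and base of its regulatory particle bind the chain, remove it and unfold the substrate with the energy of ATP, and the thread passes through the gate of the alpha ring to the proteolytic sites inside the beta rings. In early mouse embryos it removes proteins left by the oocyte, at a stage when maternal mRNA is being cleared and the embryonic genome is being switched on.

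All embryos were of the FVB strain, from mothers on a Control diet, and were collected 28 hours after intracytoplasmic sperm injection. Injected heads came from the storage end of the epididymis, the cauda, of males on a Control (20 embryos) or a Low Protein, LP, diet (17 embryos), or from the rete testis, through which sperm leave the testis, of Control (22 embryos) or LP males (23 embryos). Head groups are listed below in the order cauda Control, cauda LP, rete Control, rete LP. Injection of whole sperm, tail included, gave 9 embryos with cauda sperm and 12 with rete sperm, whose donors' diet is named, as Control, only in the table's header. The labels name neither father nor injection day, so p-values measure the spread between embryos only.

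Values are CPM, the reads of a gene set relative to all reads of that embryo. Depth was worked out from the step between low values and lay between 529863 and 6058308 reads, with medians of 1056545 to 1197679 in the head groups and more in the whole-sperm groups (4091157 for cauda, 2806572 for rete). All 14 markers of the 2-cell embryo and all 7 of the oocyte that were listed were in the table. Of cumulus-cell markers 3 of 10 (Amhr2, Gja1 and Serpine2) were in it, and of sperm and testis markers 2 of 6 (Ldhc and Odf2). None of the markers found had a group median at the value written for 0, which is 0.1 CPM. Summed, those of cumulus cells had group medians of 197 to 299 CPM, and those of sperm and testis 214 to 376. Embryos 19 of cauda Control heads, 11 of rete LP heads and 5 of cauda whole sperm were low in detected genes, and calls of members that change without them are given both ways. A CPM value is a share of an embryo's reads, so fewer cells or nuclei making an mRNA and less of it per cell cannot be told apart.

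Promoters were matched for 28 of the 34 genes (30 promoters) in the RefSeq table on GRCm38.p6. A core antioxidant response element, TGACNNNGC on either strand, was looked for because Nfe2l1, a transcription factor that raises proteasome genes when the proteasome is inhibited, is known to bind such elements. The stretch searched was 300 bases, 250 before and 50 after each start site. It was in 5 of the 30 promoters, 16.7% against 12.4% of all 32851 promoters of the table. The 5 are shown since they include both genes that were lower in whole-sperm embryos (Psmb5, Psmb6 and Psmd12) and genes that were not (Psmc6 and Psmd9). They lie at chr14:54617996-54618245 on the minus strand for Psmb5, and on the plus strand at chr11:70525107-70525356 for Psmb6, chr14:45329574-45329823 for Psmc6, chr11:107479278-107479527 for Psmd12 and chr5:123227940-123228189 for Psmd9. Each line is the 250 bases before the start site, read 5′ to 3′ along the gene, with the element in capitals.
Psmb5: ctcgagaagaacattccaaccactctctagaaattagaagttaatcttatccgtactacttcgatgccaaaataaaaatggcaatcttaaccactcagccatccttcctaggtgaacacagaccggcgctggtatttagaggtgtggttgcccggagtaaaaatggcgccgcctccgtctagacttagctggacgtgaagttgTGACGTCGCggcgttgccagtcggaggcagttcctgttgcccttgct
Psmb6: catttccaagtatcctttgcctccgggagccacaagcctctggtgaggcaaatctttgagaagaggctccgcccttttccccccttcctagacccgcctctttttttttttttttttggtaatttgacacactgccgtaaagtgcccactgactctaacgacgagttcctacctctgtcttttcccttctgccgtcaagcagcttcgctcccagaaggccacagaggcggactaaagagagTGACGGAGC
Psmc6: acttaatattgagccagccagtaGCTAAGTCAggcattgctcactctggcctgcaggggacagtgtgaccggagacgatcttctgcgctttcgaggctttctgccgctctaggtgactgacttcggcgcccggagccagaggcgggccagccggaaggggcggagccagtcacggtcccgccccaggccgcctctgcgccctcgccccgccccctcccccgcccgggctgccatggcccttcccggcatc
Psmd12: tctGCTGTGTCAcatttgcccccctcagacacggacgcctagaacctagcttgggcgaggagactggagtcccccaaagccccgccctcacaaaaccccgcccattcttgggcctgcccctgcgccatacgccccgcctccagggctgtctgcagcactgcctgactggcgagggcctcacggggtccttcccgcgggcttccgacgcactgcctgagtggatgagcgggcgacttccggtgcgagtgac
Psmd9: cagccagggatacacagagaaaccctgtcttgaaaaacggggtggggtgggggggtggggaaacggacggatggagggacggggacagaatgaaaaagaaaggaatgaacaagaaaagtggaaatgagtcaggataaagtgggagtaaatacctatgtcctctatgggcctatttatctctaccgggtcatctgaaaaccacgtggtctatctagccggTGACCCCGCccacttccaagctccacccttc
The element begins 47, 9 and 31 bases before the start site in Psmb5, Psmb6 and Psmd9, and stands in reverse complement 227 and 247 bases before it in Psmc6 and Psmd12. An Ets-family core, CCGGAAGT on either strand, was in 6 of the 30 promoters (20%, against 3.89% of all), those of Psma6, Psmc1, Psmc2 (2 promoters), Psmd6 and Psmd12. CCAAT was in 12 (40.0%, against 37.4%). A match is a description of these letters, not of a bound site.

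Proteasome mRNA was present in every group. Summed over the core genes, it was 1642 ± 638 CPM (SD, n = 20) and 1546 ± 461 (n = 17) with cauda heads of Control and LP males, and 1222 ± 745 (n = 22) and 1224 ± 304 (n = 23) with rete heads. With whole sperm the core sum was 547 ± 311 CPM from cauda (n = 9) and 445 ± 148 from rete (n = 12). The whole-sperm embryos were thus the lowest groups, yet their ranges ran into those of the heads, with 267 to 1321 CPM in cauda whole against 607 to 2840 in cauda Control heads, and 257 to 745 in rete whole against 280 to 3759 in rete Control heads. The highest cauda whole-sperm embryo was embryo 5, low in detected genes. Without it the core sum there was 450 ± 119 CPM (n = 8) and ended at 651, and the regulatory sum below was 868 ± 130. Summed over the regulatory particle, mRNA was 2223 ± 719, 2085 ± 594, 1750 ± 763 and 1737 ± 428 CPM in the same 4 head groups and 930 ± 221 and 966 ± 172 CPM in cauda and rete whole-sperm embryos. The ratio of regulatory to core mRNA was higher in whole-sperm embryos, 1.89 ± 0.43 for cauda and 2.32 ± 0.65 for rete, than in their Control heads, 1.43 ± 0.30 and 1.63 ± 0.60, and the ranges overlapped in both. These sums are descriptions and were not tested.

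**Figure D1:**
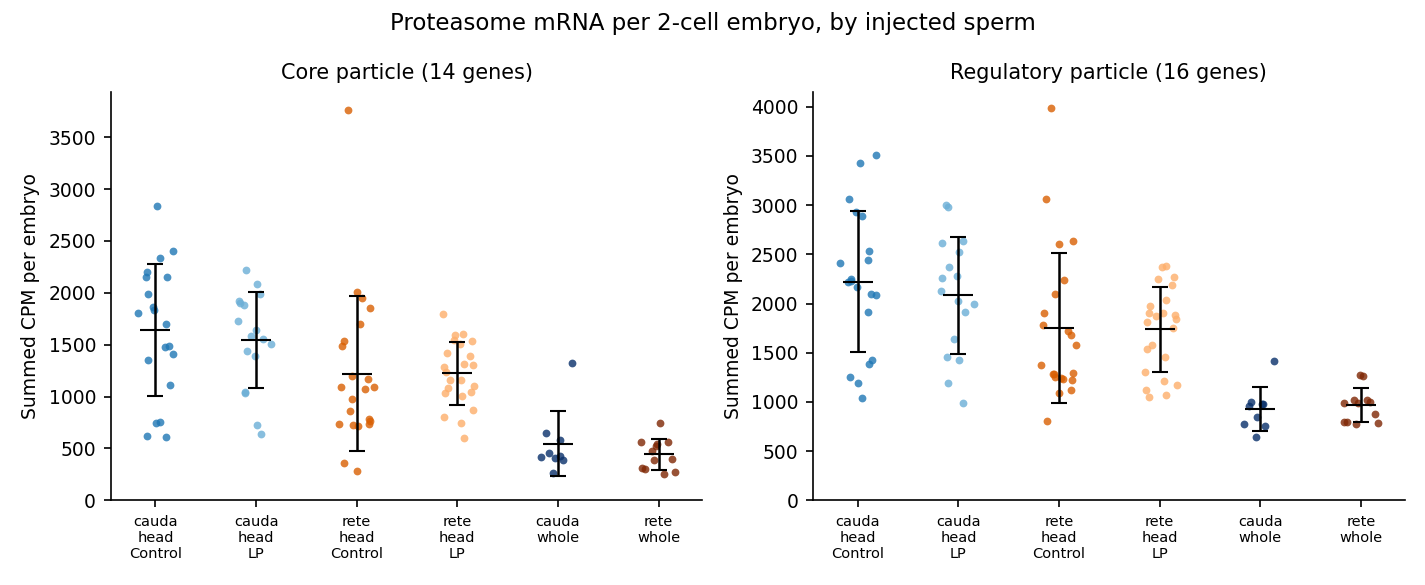
Summed CPM per embryo (vertical axes) of the 14 core genes on the left and the 16 regulatory particle genes on the right, by group. Each point is an embryo, and bars are the mean and SD, so that the whole-sperm groups stand at means of 445 to 547 CPM for the core against 1222 to 1642 in the head groups.

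Per length of transcript the members differed widely. Averaged over the 6 groups, the highest of the regulatory particle in CPM per kb was Psmd4, the ubiquitin receptor of the base, at 182, followed by the lid subunits Psmd11 at 95.6 and Psmd7 at 90.9. The lowest were the ATPases Psmc6 at 13.1, Psmc4 at 16.2 and Psmc3 at 27.2. All 6 ATPases stood between 13.1 and 41.5 CPM per kb, below the 3 highest members of the lid. In the core, Psmb5 averaged 132 CPM per kb, Psma7 90.7 and Psmb6 89.1, and the lowest were Psma5 at 29.8, Psma2 at 37.1 and Psmb4 at 41.3. Psmd10, a chaperone that holds a base ATPase during assembly, had the lowest level of any member at 12.2 CPM per kb. These averages pool groups that differ: Psma7 stood at 73.1 CPM per kb in cauda Control heads, below 8 other core genes, and at 179 and 108 in cauda and rete whole-sperm embryos. They are also means: the median of Psma7 in cauda whole-sperm embryos was 84.6 CPM per kb. In rete LP heads Psmb6 had a mean of 128 and a median of 66.7. The highest values there were those of embryos 5 and 11, low in detected genes.

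The 3 catalytic subunits did not keep a fixed order of level. Psmb5, which carries the chymotrypsin-like site, stood at 221 ± 110 CPM per kb in cauda Control heads, above the caspase-like Psmb6 at 108 ± 54.6 and the trypsin-like Psmb7 at 79.6 ± 39.3. In cauda whole-sperm embryos Psmb5 was the lowest of them, at 7.08 ± 8.42 CPM per kb, with Psmb6 at 60.8 ± 40.5 and Psmb7 at 18 ± 13.3. Rete whole-sperm embryos had 18.9 ± 22.2 CPM per kb for Psmb5, 43.5 ± 17.6 for Psmb6 and 14.6 ± 7.30 for Psmb7. Each of these spreads is wide, and the order of Psmb5 and Psmb7 in rete whole-sperm embryos lies within it. Of the 31-base words of the Psmb5 transcript, 61.7% also occur in the pseudogene Gm3375, and shares above 20% were found for Psmb3 (51.8%), Psma5 (50.5%), Psmd2 (39.0%), Psma4 (37.8%), Psmc1 (29.1%), Psma3 (22.5%) and Psmd11 (22.2%) with other copies. How reads that fit several places were counted is not given in the sources used here, so the levels of these 8 genes are uncertain to that extent.

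Whole sperm was compared with Control heads of the same source, 9 embryos with 20 for cauda and 12 with 22 for rete, to ask whether what is injected with the head goes with a different level of proteasome mRNA. Most of the 34 members were lower with whole sperm and none was higher at an adjusted p of 0.05 (limma, Benjamini-Hochberg over all genes). In cauda 27 of 34 were lower, where of all genes tested 34.3% were lower, 24.4% higher and 58.7% either. In rete 22 of 34 were lower, where of all genes 19.5% were lower, 14.1% higher and 33.6% either. At an unadjusted p under 0.05 there were 29 and 25 members, against 63.4% and 44.7% of all genes, and 30 and 31 had a negative fold change, against 51.9% and 49%. The median log2 fold change of the members was -1.49 in cauda, against -0.08 over all genes, and -1.10 in rete, against 0.03. The 2 comparisons share no embryo, though they share the fit's estimate of spread. All 22 lower in rete were also lower in cauda, and of all genes 1403 (17.8%) were lower in both. Without the embryos low in detected genes 29 members were lower in cauda, Psmb3 and Psmc6 added, against 33.6% of all genes, and 23 in rete, Psma5 added, against 21.2%. None of those embryos was in the rete groups compared here. The rete fold changes thus stayed the same (members' median -1.10), and only the fit's estimate of spread differed.

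Preparation cannot be told apart from whatever else set the whole-sperm libraries apart, depth included. The donors' diet is absent from the labels and is named, as Control, only in the table's header. In the embryos of rete whole sperm and rete Control heads whose depths overlapped, 3 and 22, 8 members were lower (Psma2, Psmb2, Psmb5, Psmc4, Psmc5, Psmd6, Psmd14 and Psmc3ip), a comparison chosen after seeing the data. There 4.56% of all genes were lower, and the members' median log2 fold change was -1.17, beside -1.10 in all embryos. Psmc6, not called in either, turned to 0.57. Scaling shifted all genes: the all-gene median in cauda went from -0.08 to 0.24 with quantile normalization and to 0.12 with median-of-ratios scaling. Calls over all genes went from 1929 higher and 2705 lower to 2776 and 2351 with quantile normalization. Of the members, 22 were then lower and 3 higher with quantile normalization, against 29.8% and 35.2% of all genes, and 23 lower and 1 higher with median-of-ratios scaling, against 31.6% and 31.3%. The calls in cauda that were lost in some of the 10 alternative settings were those of Psmc4 and Psmd8 in 3, of Psmb6 and Psmd3 in 2 and of Psmb2 in 1. In rete, beside those lost at shared depth, Psmc2 was lost in 3 further settings of the 11 and Psmd12 in 1. The settings without a filter and with a filter at 10 CPM tested the same genes and could not differ from the main fit.

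In the alpha ring, whose subunits gate the entry to the core, 6 of 7 genes were lower in cauda whole-sperm embryos and 5 of 7 in rete. Psma6 ranged from 14.6 to 369 CPM with a median of 153 in cauda Control heads, and from 4.65 to 35.9 with a median of 8.56 in cauda whole-sperm embryos. All 9 whole-sperm embryos lay below the head median and 6 below the lowest head embryo (log2 fold change -3.06 ± 0.53 SE, limma adjusted p = 9.87e-07). In rete, Psma6 ranged from 6.88 to 348 CPM (median 62.3) with heads and from 2.70 to 23.2 (median 14.9) with whole sperm, all 12 below the head median (-2.14 ± 0.48, limma adjusted p = 4.46e-04). Psma3, Psma1, Psma5, Psma2 and Psma4 fell by 2.93, 2.33, 2.32, 1.60 and 1.47 on the log2 scale in cauda. In rete Psma2, Psma3, Psma1 and Psma4 fell by 1.63, 1.55, 1.35 and 1.28, and Psma5 did not pass (-0.97 ± 0.41, limma adjusted p = 0.0560), though it did in 4 of 11 alternative settings.

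Psma7 was the exception in the alpha ring. It ranged from 13.7 to 281 CPM (median 53.1) in cauda Control heads and from 11.4 to 479 (median 77.3) in cauda whole-sperm embryos, 8 of the 9 above the head median (0.86 ± 0.43, limma adjusted p = 0.0760). In rete the medians were 43.0 and 77.3 CPM, with 10 of 12 whole-sperm embryos above the head median (0.48 ± 0.39, limma adjusted p = 0.333). Its value was positive in all 10 alternative settings for cauda and all 11 for rete. It passed in cauda as higher with quantile normalization (1.14), with median-of-ratios scaling (1.08) and with the replicate number as a block (1.16).

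**Figure D2:**
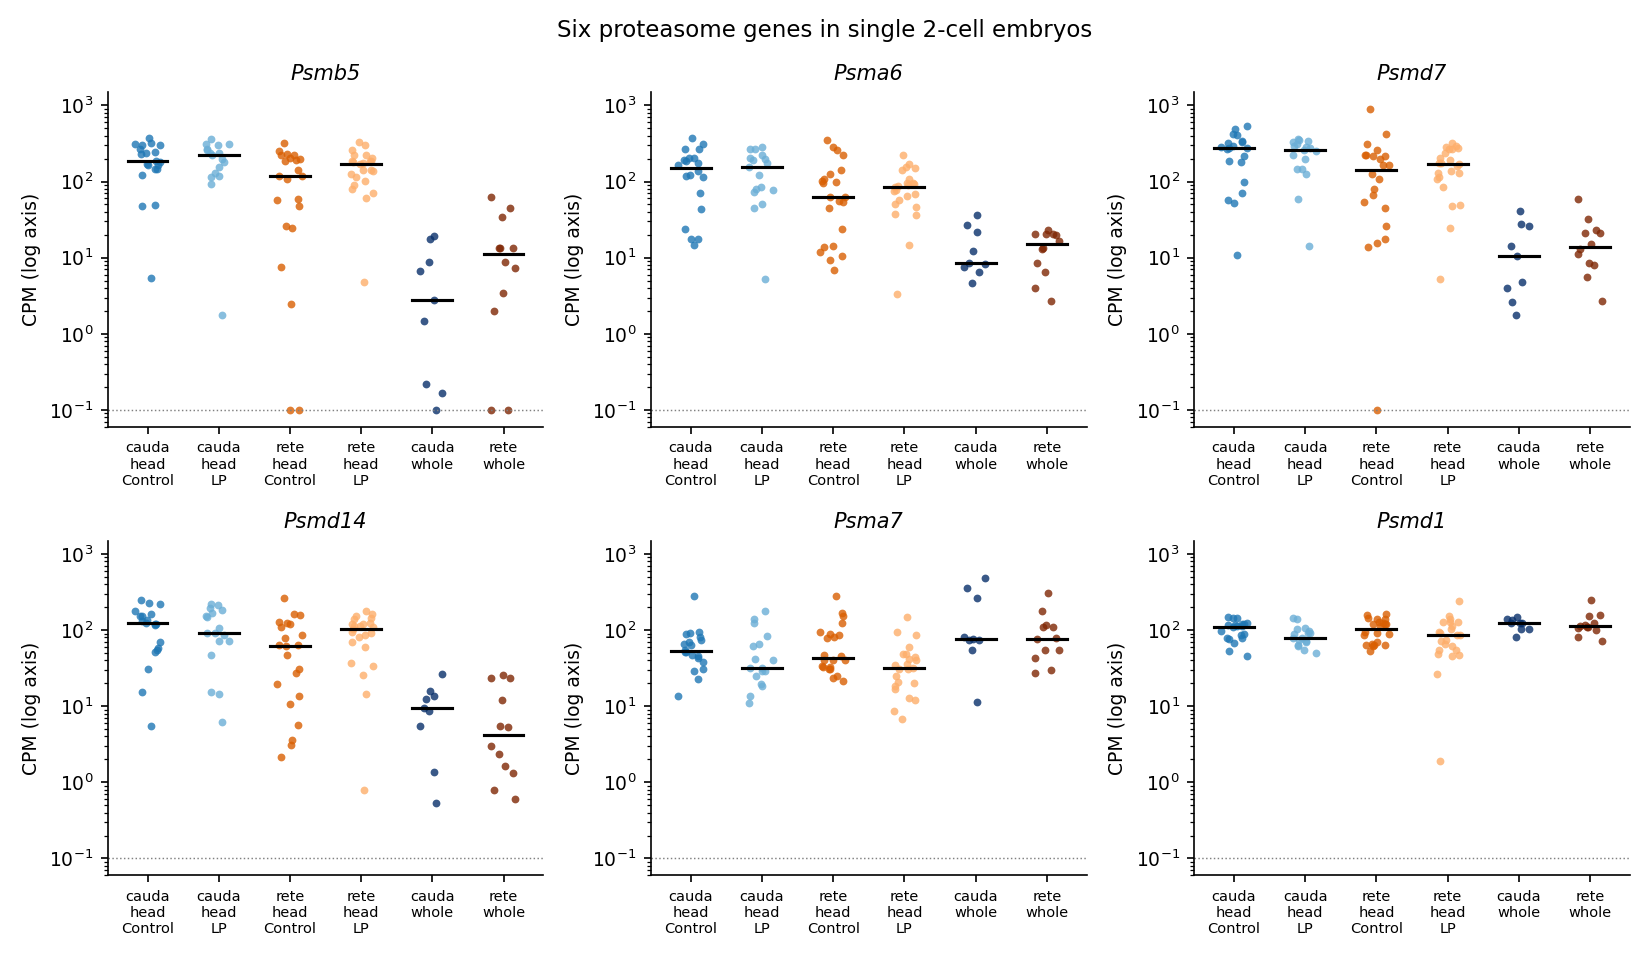
CPM per embryo on a log axis for Psmb5, Psma6, Psmd7, Psmd14, Psma7 and Psmd1 in the 6 groups, with each point an embryo, the black line the group median and the dotted line the 0.1 CPM written for 0. Psmb5 has medians of 2.78 and 11.1 CPM in the whole-sperm groups and 118 to 223 in the head groups, whereas the medians of Psmd1 lie between 78.7 and 123 CPM in all 6.

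The beta ring had 6 of 7 genes lower in both sources, with Psmb3 the one that was not (-0.63 ± 0.44 in cauda, limma adjusted p = 0.212, and -0.63 ± 0.39 in rete, limma adjusted p = 0.203). In cauda Psmb3 passed without the embryos low in detected genes (-0.95, limma adjusted p = 0.0480). Psmb5 had the largest fall of any member in cauda. Its CPM ran from 5.47 to 377 with a median of 184 in cauda Control heads, and from 0.1 to 19.5 with a median of 2.78 in whole-sperm embryos, of which 5 of 9 lay below every head embryo (-5.22 ± 0.68, limma adjusted p = 1.14e-09). In rete it ran from 0.1 to 317 CPM (median 118) with heads, 2 of 22 embryos at 0.1, and from 0.1 to 62.9 (median 11.1) with whole sperm, 2 of 12 at 0.1 (-2.69 ± 0.61, limma adjusted p = 5.24e-04). The groups overlapped in both sources.

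Psmb1, a non-catalytic beta subunit, had 1.82 to 238 CPM (median 150) in cauda Control heads and 0.58 to 60.2 (median 11.6) in whole-sperm embryos (-3.49 ± 0.51, limma adjusted p = 1.97e-08), and in rete it fell by 1.51 on the log2 scale. Psmb4, which joins the ring last, fell by 2.56 in cauda and by 1.76 in rete, where its median was 37.5 CPM with heads and 10.5 with whole sperm (limma adjusted p = 0.00263). Of the other catalytic subunits, Psmb7 fell by 2.34 in cauda and 1.33 in rete, and Psmb6 by 0.90 and 1.05. Psmb2 fell by 0.93 and 1.40.

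Of the 6 ATPases that unfold substrates, 5 were lower in cauda and 4 in rete, with a narrower range of change than the beta ring. Psmc2 had 14.6 to 161 CPM (median 67.5) in cauda Control heads and 8.60 to 30.8 (median 18.8) in whole-sperm embryos (-1.78 ± 0.43, limma adjusted p = 2.74e-04). Its rete medians were 59.2 and 22.4 CPM (-1.01 ± 0.38, limma adjusted p = 0.0347). Psmc3, Psmc4, Psmc1 and Psmc5 fell by 1.51, 1.24, 1.24 and 1.19 in cauda, and Psmc4, Psmc5 and Psmc3 by 1.39, 1.23 and 1.14 in rete. Psmc6 passed in neither (-0.80 ± 0.40 and -0.51 ± 0.36, limma adjusted p = 0.0782 and 0.268) but did in cauda without the embryos low in detected genes (-0.93, limma adjusted p = 0.0273), and Psmc1 missed in rete (-0.66 ± 0.32, limma adjusted p = 0.0957).

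Of the 3 non-ATPase subunits of the base, 1 was lower in cauda and none in rete. Psmd1, a scaffold of the base, had 45.8 to 148 CPM (median 111) in cauda Control heads and 80.7 to 151 (median 123) in cauda whole-sperm embryos (0.27 ± 0.29, limma adjusted p = 0.419), and medians of 103.5 and 112.3 CPM in rete (0.28 ± 0.26, limma adjusted p = 0.409). Its fold change was positive under every setting tried, and it passed as higher in cauda with quantile normalization only (0.62). Psmd2, the scaffold to which shuttle factors bind, had medians of 116 and 84.9 CPM in cauda (-0.39 ± 0.32, limma adjusted p = 0.287) and 113.3 and 102.96 in rete (-0.08 ± 0.29, limma adjusted p = 0.856). Psmd4 was lower in cauda, with medians of 325 and 133 CPM (-1.10 ± 0.27, limma adjusted p = 2.87e-04), and did not pass in rete, with 225 and 155 (-0.54 ± 0.24, limma adjusted p = 0.0683). Groups overlapped for all 3.

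The lid had 7 of 7 genes lower in cauda and 5 of 7 in rete, and the calls of Psmd3 and Psmd8 in cauda and of Psmd12 in rete were among those lost in some settings. Psmd7, the partner of the lid's deubiquitinase, ran from 10.9 to 532 CPM (median 276) in cauda Control heads and from 1.74 to 41.1 (median 10.6) in whole-sperm embryos, all 9 below the head median (-4.19 ± 0.58, limma adjusted p = 5.40e-09). In rete it ran from 0.1 to 898 (median 143) and from 2.73 to 58.8 (median 13.9), all 12 below the head median (-2.59 ± 0.52, limma adjusted p = 1.26e-04). No other transcript shared a 31-base word with Psmd7. Psmd14, the deubiquitinase that cuts the ubiquitin chain from the substrate, had medians of 122 and 9.53 CPM in cauda (-3.43 ± 0.60, limma adjusted p = 1.26e-06). Its rete values were 2.15 to 260 CPM (median 62.6) with heads and 0.61 to 25.5 (median 4.22) with whole sperm, the largest fall of any member there (-2.74 ± 0.54, limma adjusted p = 8.99e-05).

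Psmd12, Psmd6, Psmd11, Psmd3 and Psmd8, scaffold subunits of the lid, fell by 2.40, 1.89, 1.58, 0.79 and 0.55 in cauda. In rete Psmd6, Psmd11 and Psmd12 fell by 1.43, 1.03 and 1.00, and Psmd3 and Psmd8 did not pass (-0.39 ± 0.29 and -0.23 ± 0.22, limma adjusted p = 0.288 and 0.417). For Psmd12, 8 of 9 cauda whole-sperm embryos lay below every cauda Control head embryo, more than for any other member. No member was without overlap between whole sperm and heads in either source. Over all genes 0.443% were lower without overlap in cauda and 0% in rete.

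Of the assembly chaperones, Psmd5 was lower in both sources, with medians of 184 and 87.1 CPM in cauda (-1.22 ± 0.28, limma adjusted p = 1.55e-04) and 173 and 116 in rete (-0.74 ± 0.25, limma adjusted p = 0.0192). Psmd9 and Psmd10 passed in neither, at 0.31 ± 0.32 and 0.65 ± 0.47 in cauda and 0.05 ± 0.29 and -0.44 ± 0.42 in rete. Psmd9 passed as higher in cauda with quantile normalization (0.67). Psmc3ip, which is no subunit, fell as far as the subunits that moved most, with medians of 139 and 3.48 CPM in cauda (-4.05 ± 0.64, limma adjusted p = 1.19e-07) and 78.7 and 8.52 in rete (-2.25 ± 0.57, limma adjusted p = 0.00197).

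**Figure D3:**
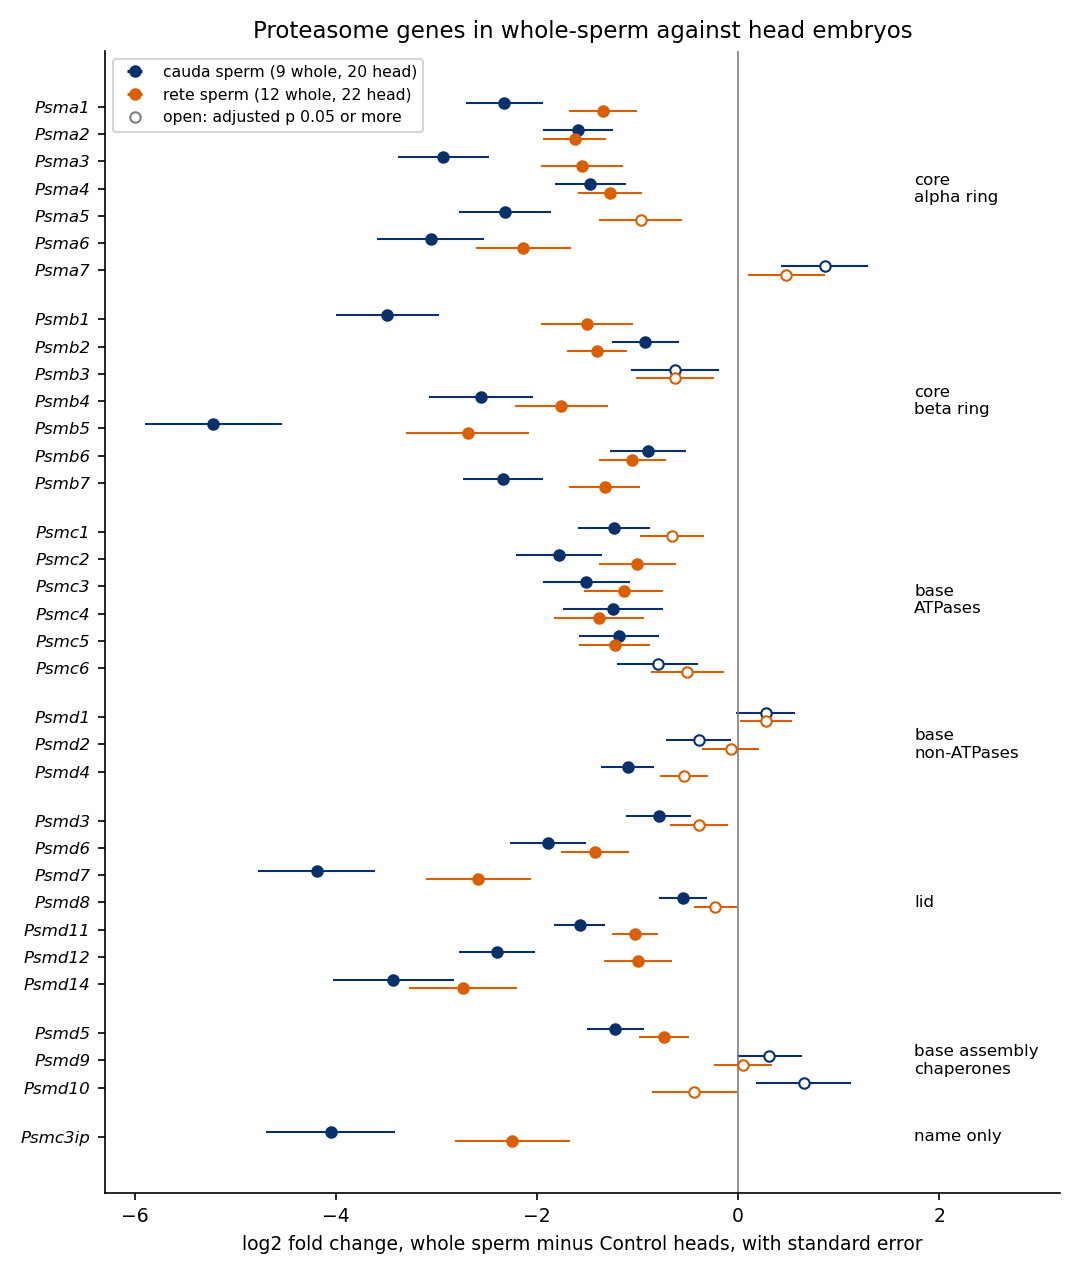
Log2 fold change of each member, whole sperm minus Control heads, with its standard error (horizontal axis), for cauda sperm in blue and rete sperm in orange, ordered by role. Filled points passed an adjusted p of 0.05, and Psma7 and Psmd1 are the members on the right of 0 in both sources that are subunits.

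Fold changes were lower in cauda than in rete for 25 of 34 members, against 57% of all genes, with a median difference of 0.47 on the log2 scale against 0.16 over all genes. Quantile normalization brought these medians to 0.28 and -0.09. The difference itself was called for no member (limma, 0.861% of all genes called). At an unadjusted p under 0.05 it was past the threshold for 7 members, against 17.9% of all genes. Psmb1 had the smallest p (difference 1.98 ± 0.69, limma adjusted p = 0.107), then Psmb5 (2.53 ± 0.91, limma adjusted p = 0.119). This contrast was added after seeing the data.

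Other gene groups moved with the preparation. All 20 listed genes of ribosome production were lower in cauda whole-sperm embryos (median log2 fold change -2.38) and 16 of 20 in rete (-1.40). Of 15 listed oocyte-derived mRNAs 8 were higher in cauda (median 0.69) and 1 in rete (0.20). The mean level of the ribosome production genes was 4.88 ± 0.73 (n = 9) and 5.39 ± 0.82 (n = 12) on the log2(CPM + 1) scale in cauda and rete whole-sperm embryos, and 7.56 ± 0.86 (n = 20) and 6.72 ± 1.43 (n = 22) in their Control heads. The part of these and of depth in the result was not tested.

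Genes that act with the proteasome were taken from a list of 39 symbols, of which 28 were in the table. Some of the symbols are alternative names of the same gene, such as Shfm1 and Sem1, so the list holds fewer genes than symbols. In cauda whole-sperm embryos 12 of the 28 were lower and 2 higher, and in rete 8 were lower and none higher. The lower genes were 42.9% and 28.6% of the 28, against 34.3% and 19.5% of all genes. Unadjusted p were under 0.05 for 53.6% and 35.7%, against 63.4% and 44.7%. Ubqln2, a shuttle factor, fell by 2.82 in cauda (limma adjusted p = 4.09e-06). The 2 that rose were Psmf1, an inhibitor of the core, by 0.88 ± 0.40 (limma adjusted p = 0.0482), and Psme3, a nuclear activator, by 0.70 ± 0.30 (limma adjusted p = 0.0380). In rete Shfm1, a small lid subunit, fell by 2.10 (25.0 ± 21.5 to 5.26 ± 6.32 CPM, limma adjusted p = 1.24e-05) and Ubqln2 fell by 2.07 (limma adjusted p = 5.35e-04). Nfe2l1 did not pass in either (0.52 ± 0.33 and 0.48 ± 0.29, limma adjusted p = 0.161 and 0.192).

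Rete sperm and cauda sperm, when injected whole, were compared to ask whether passage through the epididymis goes with a difference in proteasome mRNA. No member was called (limma, 0% of all genes), and 2 of 34 had an unadjusted p under 0.05, against 8.51% of all genes. Psmb1 had medians of 11.6 CPM in cauda and 25.5 in rete (1.18 ± 0.55 for rete minus cauda, limma adjusted p = 0.568). Psmb2 had medians of 45.3 and 25.8 CPM (-1.0 ± 0.43, limma adjusted p = 0.553). Psmc3ip (1.06 ± 0.63) and Psmd10 (-1.0 ± 0.52) were next in each direction. The median over members was 0.00, with 17 of 34 negative against 42.5% of all genes (0.08 without embryo 5 of cauda whole sperm), and for Psmb1 9 of 12 rete embryos lay above the cauda median.

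In embryos from heads of Control males, the same comparison called no member (limma, 0.038% of all genes called). Of 34 members 30 were lower in rete, against 56.7% of all genes, with a median log2 fold change of -0.45 against -0.10 over all genes, and 14 had an unadjusted p under 0.05, against 22.1% of all genes. Psmb7 had 25.6 to 208 CPM (median 88.8) in cauda and 3.57 to 227 (median 55.5) in rete, 17 of 22 rete embryos below the cauda median (-1.03 ± 0.30, limma adjusted p = 0.167). Psmd12 had medians of 102 and 62.3 CPM, with 18 of 22 below (-0.92 ± 0.30, limma adjusted p = 0.167). Psmd9 (0.12 ± 0.26) and Psmd10 (0.09 ± 0.36) had the smallest p among the positive values, and Psmd10 turned to -0.10 without the embryos low in detected genes. Beside these values, none of the 20 ribosome production genes had a positive fold change (median -0.85). Quantile normalization and median-of-ratios scaling each moved the members' median to -0.34, and the all-gene median to 0.02 and 0.01.

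In embryos from heads of LP males no member was called for source (limma, 0.076% of all genes called), and 4 of 34 had an unadjusted p under 0.05, against 7.70% of all genes. Of the members 31 were lower in rete, against 66.3% of all genes, with a median of -0.34 against -0.14. Quantile normalization brought the members' median to -0.22 and median-of-ratios scaling to -0.16, with 5 and 10 members positive instead of 3. The all-gene median moved as well, to -0.005 and 0.025. Psmb2 had 24.1 to 144 CPM (median 84.1) in cauda and 6.68 to 99.5 (median 55.7) in rete, 21 of 23 rete embryos below the cauda median (-0.62 ± 0.25, limma adjusted p = 0.465). Psmc4 had medians of 26.4 and 17.5 CPM (-0.96 ± 0.40, limma adjusted p = 0.513). Psmd10 (0.30 ± 0.38) and Psmd5 (0.07 ± 0.23) were named by the same rule among the positive values.

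The LP diet of the father was compared with the Control diet within each source, and these comparisons share their head groups with those of source. In cauda heads no member was called (limma, 0% of all genes), none had an unadjusted p under 0.05, against 2.06% of all genes, and fold changes lay between -0.41 and 0.23 with a median of -0.11 (-0.06 without the embryos low in detected genes). Of the 34 members 26 were lower with LP, against 47.8% of all genes. The smallest p belonged to Psma2, with medians of 159 CPM in Control and 137 in LP embryos (-0.41 ± 0.29, limma adjusted p = 0.999). Psma7 (-0.41 ± 0.34), Psma3 (0.23 ± 0.38) and Psmd11 (0.09 ± 0.22) were next by the naming rule, and for Psmd11 9 of 17 LP embryos lay below and 8 above the Control median.

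In rete heads no member was called for diet either, where 1.49% of all genes were called, 31 higher (0.393%) and 87 lower (1.1%). Quantile normalization turned that split to 143 and 149, and median-of-ratios scaling to 217 and 131, with no member called under either. Of 34 members 7 had an unadjusted p under 0.05, against 22.9% of all genes, and 17 were higher and 17 lower with LP (median 0.00), where 52.3% of all genes were lower. Psmb7 had 3.57 to 227 CPM (median 55.5) in Control and 21.5 to 139 (median 80.8) in LP embryos, 18 of 23 LP embryos above the Control median (0.82 ± 0.29, limma adjusted p = 0.101). Psmb5 had medians of 118 and 168 CPM (1.15 ± 0.50, limma adjusted p = 0.161). Psma7 had medians of 43.0 and 31.7 CPM, where 16 of the 23 LP values lay under the median of Control (-0.83 ± 0.31, limma adjusted p = 0.108), and Psmd9 44.2 and 33.5 CPM, where 20 of 23 did (-0.69 ± 0.25, limma adjusted p = 0.108).

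Without the embryos low in detected genes, Psma7 passed for diet in rete heads (-0.91, limma adjusted p = 0.0441), the 1 member called there. Of all 7894 genes 810 were called in that setting, 549 higher and 261 lower (3.31%). In the main fit, 19 of 20 ribosome production genes had a positive fold change with LP in rete heads (1 called, median 0.67), and 4 of 15 oocyte-derived mRNAs were lower. The difference of the diet effects between rete and cauda heads was called for no member (limma, 0.190% of all genes called), none had an unadjusted p under 0.05 against 9.20% of all genes, and the smallest p were those of Psmb7 (0.83 ± 0.43, limma adjusted p = 0.554), Psmd12 (0.82 ± 0.43), Psmd9 (-0.63 ± 0.38) and Psmb3 (-0.62 ± 0.50). Of the associated list, no gene was called in any comparison of diet or source (limma). Between 0 and 6 of its 28 genes (26 in whole sperm) had an unadjusted p under 0.05. For diet these were 0% in cauda and 17.9% in rete heads, against 2.06% and 22.9% of all genes. For the difference of the diet effects they were 7.14%, against 9.20%. For source they were 21.4% in Control heads, 10.7% in LP heads and 11.5% in whole sperm, against 22.1%, 7.70% and 8.51%.

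**Figure D4:**
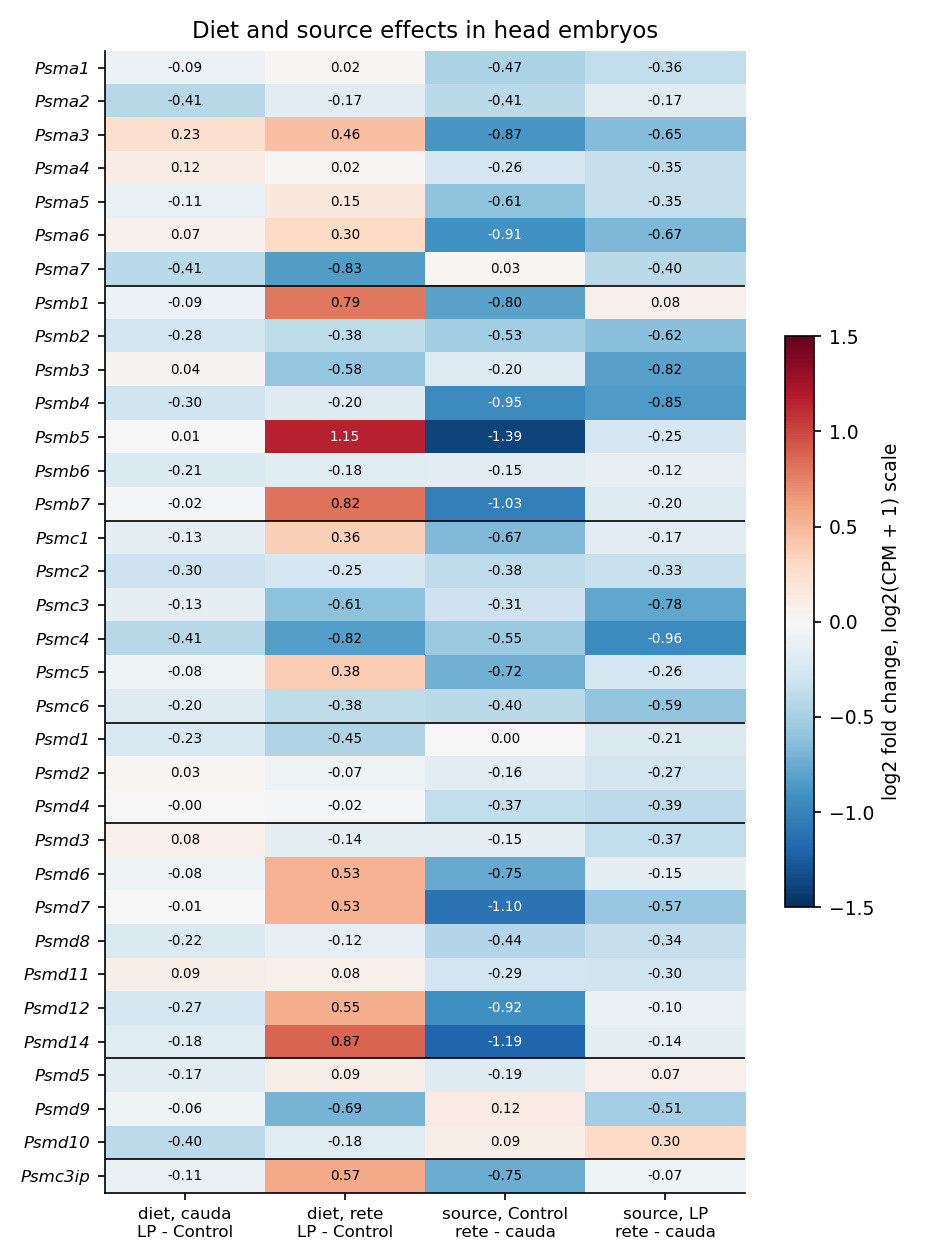
Log2 fold changes of the 34 members (rows, by role) in the 4 comparisons among head embryos (columns), printed in each cell and coloured from blue for lower to red for higher. None passed an adjusted p of 0.05, and the source columns are mostly negative, with 30 and 31 of 34 members below 0.

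Members varied from embryo to embryo about as much as other genes. Their median coefficient of variation was 0.49, 0.45, 0.68 and 0.53 in the 4 head groups, where that of all genes was 0.58, 0.53, 0.71 and 0.63. In cauda and rete whole-sperm embryos it was 0.73 and 0.55, against 0.60 and 0.55. Single embryos held many of the extremes. Embryo 13 of cauda LP heads was the lowest of its group for 19 of 34 members, embryo 23 of cauda Control heads for 15, embryo 11 of rete LP heads for 15 and embryo 14 of rete Control heads for 11. These embryos also had the lowest ribosome production levels of their groups, 3.67, 4.49, 4.10 and 3.21 on the log2(CPM + 1) scale. Embryo 5 of rete Control heads was the highest of its group for 21 members, with 3759 CPM over the core.

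Members varied together in 3 of the head groups and less clearly in rete LP heads. The median pairwise correlation of log2(CPM + 1) among proteasome genes, Psmc3ip left out, was 0.54 (n = 20), 0.50 (n = 17), 0.45 (n = 22) and 0.27 (n = 23) in the 4 head groups. Over all gene pairs it was 0.01, 0.01, 0.02 and 0.17. Among the core genes alone it was 0.61, 0.60, 0.57 and 0.17, in rete LP heads the value of all pairs. The rete LP values include embryo 11, low in detected genes, which was the lowest of its group for 15 members and the highest for 5. Correlations among members without that embryo were not computed. In whole-sperm embryos the members' value was 0.14 in both sources (n = 9 and 12), against 0.05 and 0.04 for all pairs. Psma6, Psmd7, Psmb1 and Psma3 correlated most with the rest in the 4 head groups in turn (medians 0.75, 0.78, 0.65 and 0.56). Psmd2, Psma7, Psmd9 and Psmb6 correlated least (-0.27, -0.50, -0.14 and -0.29). Genes of an embryo share its library and depth, and these values are descriptions.

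Many members followed the ribosome production genes across head embryos, as computed in 408 relations of the 34 members with 2 lists in 6 groups (permutation tests, Benjamini-Hochberg adjusted over the 408). Called positive in the 4 head groups were 23, 23, 19 and 15 members by Pearson's r, and 22, 18, 20 and 9 by Spearman's rho. At the permutation p of the members called, 25.2%, 22.3%, 30.4% and 30.8% of all genes outside the list were positive by r and 22.3%, 16.4%, 31% and 18.6% by rho. The members' median r was 0.66, 0.69, 0.55 and 0.56, against 0.02, 0.04, 0.05 and 0.34 over all genes, and without the 2 embryos farthest from the list's median 0.60, 0.53, 0.46 and 0.29. In rete LP heads the relation thus rested in good part on those embryos. In whole-sperm embryos 3 members were called positive for cauda (median r -0.02) and 7 for rete (0.29), against 6.57% and 10% of all genes.

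Psmd7 followed the list in every head group, with r of 0.92, 0.91, 0.91 and 0.89 (rho 0.85, 0.80, 0.91 and 0.62). Without the 2 extreme embryos its r was 0.82, 0.82, 0.86 and 0.61, and the largest adjusted permutation p of its 4 rho was 0.0110. Psmb5 had r of 0.96, 0.98, 0.93 and 0.58 (rho 0.90, 0.81, 0.90 and 0.86), and 0.84, 0.84, 0.88 and 0.86 without the 2 extreme embryos. Its r in rete LP heads did not pass (adjusted permutation p = 0.0877), whereas its rho did (adjusted permutation p = 4.08e-04). Psma7 ran the other way, with r of -0.61, -0.59, -0.38 and -0.66 (rho -0.40, -0.46, -0.50 and -0.65), and its rho passed in rete LP heads alone (adjusted permutation p = 0.00639). Psmd2 in rete LP heads had r 0.76 but rho 0.30 and r 0.30 without the 2 extreme embryos, so that relation rested on them.

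With the oocyte-derived mRNAs, 23, 16 and 16 members were called negative by r in the first 3 head groups, with median r of -0.64, -0.50 and -0.47, against 24.4%, 15.8% and 24.7% of all genes. In rete LP heads none was called negative, against 1.27% of all genes, and the median r was 0.10. Without the 2 embryos farthest from the list's median it was 0.01, and embryo 11, low in detected genes, stayed in both values. That embryo stood at 6.48 on the list, against a group median of 7.13, and was the lowest of its group for 15 members. The relation without embryo 11 was not computed. Psma7 had r of 0.67, 0.64, 0.51 and 0.57 with these mRNAs in the 4 head groups in that order. The difference between rete LP heads and the other groups was not tested.

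**Figure D5:**
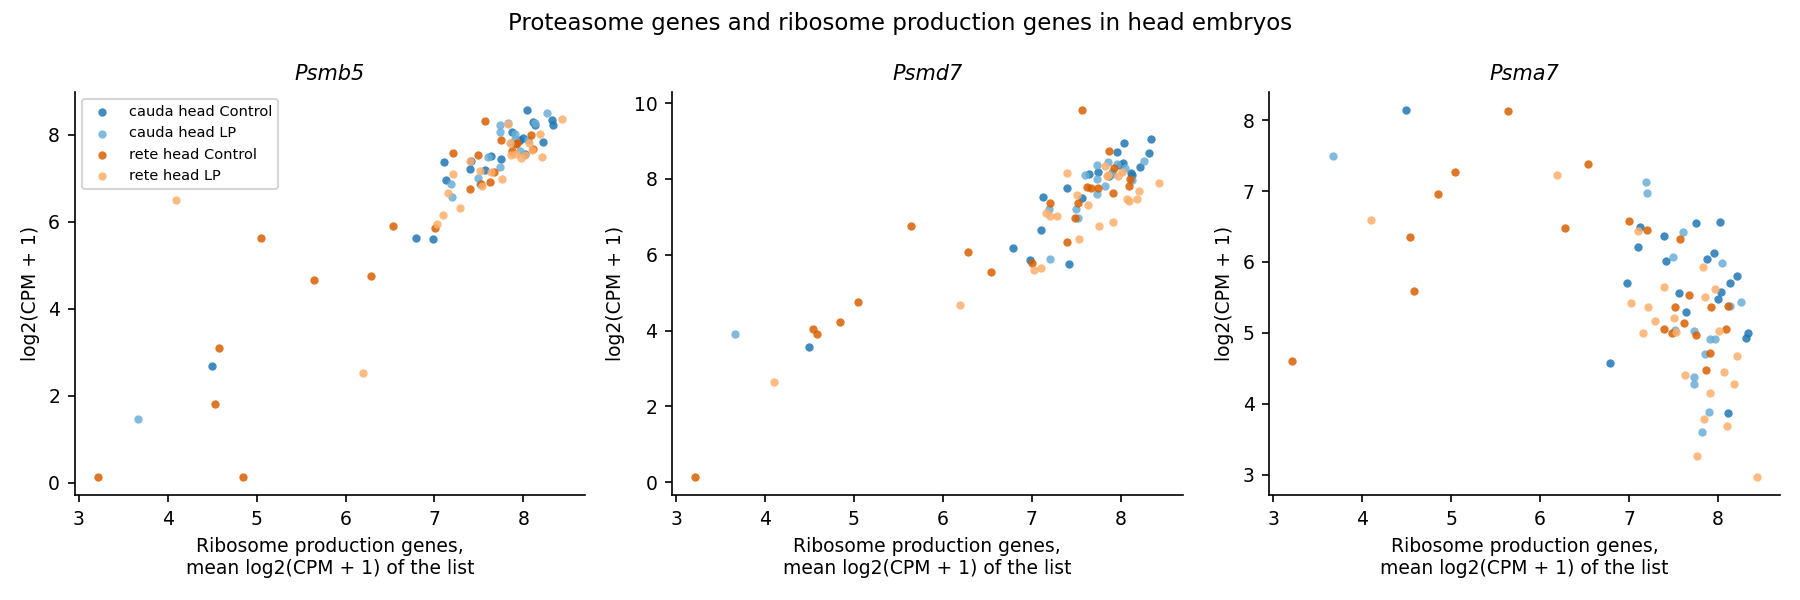
Level of Psmb5, Psmd7 and Psma7 (vertical axes, log2(CPM + 1)) against the mean level of 20 ribosome production genes (horizontal axes, log2(CPM + 1)) in the 4 head groups, with each point an embryo. Psmb5 and Psmd7 climb with the list, with r of 0.58 to 0.98 and 0.89 to 0.92, and Psma7 descends, with r of -0.38 to -0.66.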

How the data were processed

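Single FVB 2-cell embryos were frozen in TCL buffer and sequenced as Nextera libraries, per the labels' protocols, and reads were handled with Bowtie and mm10, per the submitters' processing notes. Of versions, counter, annotation and use of strand, each is not given in the sources used here. One deposited table holds 7894 genes in 103 embryos. Its values were read as CPM, scaled by the authors, because columns sum to 92.1 to 98.1% of the size that CPM scales to and low values are multiples of a common step. A further deposited score column, used by the authors to sort genes, is at least 5.00, so low genes had been removed. Zeros were written as 0.1 (2.49% of values). Too few low values came out as whole reads (tolerance 0.001) to treat them as counts. Header rows matched the labels, 11 symbols stored as dates were restored, and 7817 genes had a transcript length.

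Tests used limma 3.58.1 in R 4.3.3 (trend, robust, log2(CPM + 1), Benjamini-Hochberg over all genes, threshold 0.05, two-sided) on genes reaching 5 CPM in 9 or more embryos. The 82 head embryos were fitted together, the 21 whole-sperm embryos alone (7782 genes), and all 103 for preparation. All 34 members passed the filter in each. A fold change on this scale understates that of low genes, and head embryos, read less deeply, carry more counting error. The rest used Python 3.11.15 (pandas 2.3.3, numpy 2.4.6, matplotlib 3.10.9, scipy 1.17.1).

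Named in a comparison were members that passed, up to the 6 largest changes per direction, or the 2 smallest p. Other members are given by value so that all are accounted for. The result of 1 gene of the associated list is not reported here. Members and lists were chosen with earlier results of these data known. On simulated data with 200 genes changed, limma recovered 10% of 2-fold and 65% of 4-fold changes for preparation in cauda and 21% and 70% in rete (7894 genes each), with 3 and 5 false calls. For diet in cauda and rete heads it recovered 27% and 39% at 2-fold and 86% and 95% at 4-fold, for source in Control and LP heads 38% and 35% and 89% and 91%. For source in whole sperm (7694 genes) it recovered 16% and 72%, for the difference of diet effects between sources 10% and 59%, and for that of preparation effects 3% and 30%. A gene's simulated spread was its SD over all embryos of the fit, with differences between groups counted in it. Counting error was added on top. These shares thus do not measure recovery in the real data, least of all for preparation, where most genes were called in cauda.

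Alternatives were pseudocounts of 0.1 and 5, no filter, 10 CPM, quantile normalization, median-of-ratios scaling, other embryos in the fit, leaving out embryos over 3 median absolute deviations low in detected genes, detected genes as a covariate, and the replicate number as a block. Correlations used 100000 permutations, and their share over all genes 20000.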

Additional observations from a re-analysis of the deposited data

How the results depend on the processing

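The count of members called moved by over 1.5 times in 2 of 89 alternative results: for diet in rete heads it was 1 (Psma7) without the embryos low in detected genes, and for preparation in rete 8 instead of 22 in the embryos of shared depth (3 whole-sperm, 22 head). In that subset Psmd7 (-2.47), Psma6 (-2.06) and Psmb4 (-1.92) no longer passed; the subset holds fewer embryos. Of 439 alternative values of named members 431 kept direction and side of the threshold, and 1 reversed, Psmd10 for source in Control heads (-0.10 without the embryos low in detected genes). Except for source in whole sperm, fits without a filter and with a filter at 10 CPM tested the same genes as the main fit. Those values repeat the main result, so the tally overstates how far it was tried. No pairing by the labels' embryo numbers was seen in the medians (median correlation of same-numbered embryos -0.05 to 0.06). Single pairs ran from -0.44 to 0.48, so weak pairing cannot be told from none. With the replicate number as a block, 27 members were called for preparation in cauda (1 higher, 26 lower), 22 in rete, and none elsewhere. Over all genes, 118 calls for diet in rete heads became 14 with only those groups in the fit, 292 with quantile normalization, 348 with median-of-ratios scaling, 810 without the low embryos and 437 with detected genes as a covariate. The 6 for source in LP heads became 11 at a pseudocount of 5, 3 with median-of-ratios scaling and 0 with only those groups. For preparation in rete, 2654 became 452 in the embryos of shared depth. The 68 for preparation by source became 114 and 4 at pseudocounts of 0.1 and 5, 33 with quantile normalization, 2, 3 and 9 with only those groups, without the low embryos and with the covariate. The causes of these shifts were not tested. Head embryos, at median depths of 1056545 to 1197679 reads, give about 1 read per CPM, so levels near 1 CPM are not resolved.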
